A study of Mus musculus with 14 samples.

Results

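The genes described here encode the subunits of heterotrimeric G proteins and the Rgs proteins that switch them off. They were chosen by symbol, as every probe set annotated to 1 gene whose name starts with Rgs, Gna, Gnb or Gng followed by the letters or digits of that family. This gave 107 of the 36899 probe sets measured, for 48 of 15964 named genes, with 63 probe sets on array set A, 27 on set B and 17 on set C. One of the 48, Gnasas1, is an antisense RNA of the Gnas locus and encodes neither a subunit nor a regulator. Of the 48 genes, 40 had at least 1 probe set bright enough to be tested.

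The arrays compared RNA of mouse spleen cells in an FDC-enriched and an FDC-depleted fraction, on 3 array sets called A, B and C. FDC are follicular dendritic cells, stromal cells that display antigen to B cells. Sets A and C each held 2 depleted and 3 enriched samples, and set B held 2 and 2. No other treatment is labelled, and strain, age, number of animals and isolation procedure are not stated in the sources used here. All p-values therefore rest on a between-sample spread that may be only technical. Median intensities were 244 to 279 on set A, 200.2 to 208.8 on set B and 123 to 126.3 on set C. The enriched fraction held more than FDC. In it 9 of 10 tested FDC markers rose, as did 15 of 16 endothelial, 12 of 12 pericyte and smooth muscle, 9 of 10 reticular fibroblast and 12 of 12 macrophage markers, while 10 of 11 B cell, 10 of 11 T cell and 8 of 8 NK cell markers fell. Of all tested genes 19.2% rose and 14.4% fell. The marker lists were chosen with earlier results of these data known, and Vcam1 is in both the FDC and the macrophage list. In such mixed fractions fewer cells of a type and less RNA per cell cannot be told apart.

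A heterotrimeric G protein consists of an alpha subunit that binds GTP and a beta-gamma pair. A receptor with bound ligand makes the alpha subunit exchange GDP for GTP, and alpha and beta-gamma then act on separate effectors. Alpha subunits of the Gs class stimulate adenylyl cyclase, those of the Gi class inhibit it and carry most chemokine receptor signals, those of the Gq class activate phospholipase C beta, and Gna12 and Gna13 form a class of their own. Rgs proteins speed up GTP hydrolysis by the alpha subunit and so shorten the signal. In the spleen these switches set how lymphocytes follow chemokines into follicles and how vessels and contractile stroma respond to hormones.

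Each gene was represented by the tested probe set whose mean level ranked highest within its array set, which need not have the highest intensity. With limma and Benjamini-Hochberg adjustment over all tested probe sets of an array set, 13 of the 40 tested genes were higher in the enriched fraction, 4 were lower and 23 did not pass at an adjusted p under 0.05. Over all 12267 tested genes, 19.2% rose, 14.4% fell and 33.7% did either by the same rule. With either depleted sample left out, 1 depleted array remained. The rises then dropped both among the 40 genes and over all genes, and the falls over all genes dropped too. Counted as probe sets, 24 of 68 rose and 5 fell, against 17.5% and 14.7% of all those tested. Of the 68, 5 lay above the filter on enriched arrays alone and 1 on depleted arrays alone. All those 5 are among the 24 rises, which such a choice favours. On set A 16 of 40 rose and 5 fell (all probe sets 23.1% and 17.9%), on set B 7 of 20 rose (19.4%, with 17% falling) and on set C 1 of 8 rose (9.5%, with 8.73% falling). The median log2 difference, enriched minus depleted, was 0.05 over the 40 genes and 0.02 over all genes. All enriched arrays lay above all depleted arrays for 17 of the 40 genes, against 34% of all genes, and below them for 8, against 27.3%. Of the 26 tested subunit genes 9 rose and 1 fell, and of the 14 tested Rgs genes 4 rose and 3 fell. Thus 3 of the 4 falls were Rgs genes. These are too few genes to read a trait of the regulators from, and the split was not tested. Fold changes are of log2(intensity + pseudocount), which understates the change of dim probe sets.

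**Figure D1:**
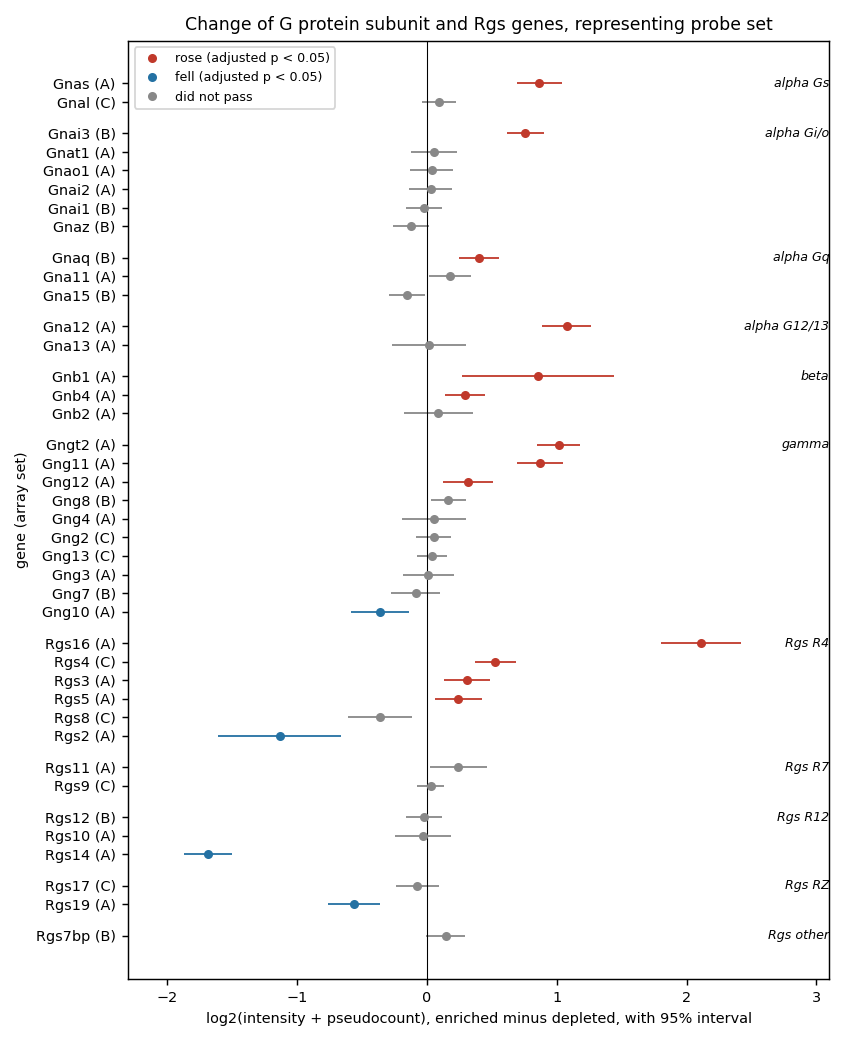
Each point is the log2 difference, enriched minus depleted, of 1 gene at its representing probe set, with the 95% interval of the limma fit and the array set in brackets; red genes rose, blue genes fell and grey genes did not pass. Rgs16 had the highest value (2.11) and Rgs14 the lowest (-1.69), and most alpha subunits outside the 4 red ones lay near 0.

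Among the alpha subunits 4 of 13 tested genes rose, against 19.2% of all genes, and each class held 1 of these rises. With limma none fell on the deposited scale, 1 was lower at an unadjusted p under 0.05, and Gna15 fell under both other scalings. Gnas, the Gs alpha subunit, had intensities of 4823 and 4710 on the depleted arrays and 8299, 9028 and 8963 on the enriched arrays of set A. The means were 4766 ± 80.4 (SD, n = 2) and 8763 ± 404 (SD, n = 3), a 1.82-fold rise with adjusted p = 3.77e-05 (limma). The groups lay far apart compared with their spread. Another tested Gnas probe set, on set B, read 818 and 785 against 734 and 841, had a log2 difference of -0.03 and did not pass. A dim set A probe set, not tested, read 131 and 141 against 95.4, 94.1 and 94.8 and ran the other way. At the remaining dim ones, on sets A and C, the groups overlapped. The Gnas locus gives rise to several transcripts, and which of them each probe set matches was not tested. Gnal, the olfactory form of the Gs subunit, had a log2 difference of 0.09 that did not pass (95% interval -0.04 to 0.23).

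Of the 6 tested Gi-class genes 1 rose, against 19.2% of all genes. Gnai3 read 745 and 757 on the depleted and 1295 and 1354 on the enriched arrays of set B, a 1.69-fold rise (adjusted p = 8.43e-06, limma). On set A its means were 1132 ± 27.4 (SD, n = 2) and 1795 ± 101 (SD, n = 3), a 1.54-fold rise. Both probe sets of Gnai3 thus rose with no overlap of groups. Gnai2, the main Gi subunit of leukocytes, read 6147 and 6515 on depleted and 6426, 6568 and 6381 on enriched arrays. Its difference of 0.03 did not pass (95% interval -0.14 to 0.19). Of its 2 other tested probe sets, 1 passed at 0.23 (adjusted p = 0.0491) and lost the call under quantile normalization (0.175), with scaling to the median array (0.373), with a replicate block (0.0949) and without any 1 of the 5 samples (0.0551 to 0.272). Gnai1 (-0.02), Gnao1 of neurons (0.04), Gnat1 of photoreceptors (0.05) and Gnaz (-0.12) did not pass.

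In the Gq class, Gnaq rose 1.32-fold on set B, from 282 and 284 on the depleted to 426 and 376 on the enriched arrays (adjusted p = 0.00101, limma). Gna11, its close relative, gave different results at 2 probe sets. The brighter read 683 and 711 on depleted and 781, 816 and 806 on enriched arrays and did not pass at a log2 difference of 0.18 (adjusted p = 0.0758). The other went from 213 and 174 to 388, 402 and 398 and rose 1.72-fold (adjusted p = 8.89e-05), a call kept under all 9 alternatives run for it. The enriched arrays lay above the depleted ones at both Gna11 probe sets. Gna15, the Gq-class subunit of blood cells, had a difference of -0.16 on set B that did not pass (adjusted p = 0.0765) and passed at -0.18 and -0.19 under the other scalings (0.0379 and 0.0314). Gna14 was too dim to be tested.

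Gna12 rose at both its probe sets. The brighter read 418 and 461 on the depleted and 955, 1084 and 1034 on the enriched arrays of set A, a 2.11-fold rise with adjusted p = 1.91e-05 (limma). The other went from 134 on both depleted arrays to 248, 336 and 305, a 1.72-fold rise, and lay above the filter on enriched arrays alone. Gna13, whose signal confines germinal centre B cells to follicles, read 646 and 849 on depleted and 671, 833 and 747 on enriched arrays, with full overlap. Its difference of 0.01 had a 95% interval of -0.27 to 0.30. The 2 depleted arrays of Gna13 lay apart, and at its other probe set they read 147 and 401, so that the difference of 0.66 there did not pass (adjusted p = 0.0893) but did without depleted sample 2 (1.19, 0.00131), with a replicate block (0.67, 0.000718) and with array weights (0.64, 0.0295).

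Beta and gamma subunits form the pair that anchors the G protein to the membrane. Of 3 tested beta genes 2 rose, against 19.2% of all genes. Gnb1 read 555 and 589 on the depleted and 1734, 906 and 848 on the enriched arrays of set A. Enriched sample 1 stood apart, also at a second Gnb1 probe set (1016 against 567 and 582). At its 2 other tested probe sets Gnb1 did not pass (log2 0.59 and 0.17, adjusted p = 0.0540 and 0.113, limma). The enriched arrays lay above the depleted ones at both. At the representing one Gnb1 rose 1.81-fold (log2 0.85 ± 0.25 SE, adjusted p = 0.0276, limma). Without enriched sample 1 the log2 difference of Gnb1 there was 0.55 (0.000414). It did not pass without depleted sample 1 (0.118) or 2 (0.0931). Gnb4 went from 152 and 165 to 210, 211 and 220, a 1.23-fold rise that was likewise lost without depleted sample 1 (0.127) or 2 (0.0585), and lay above the filter on enriched arrays alone. Gnb2 read 2324 and 2423 against 2155, 2789 and 2681 and did not pass. Gnb3 and Gnb5 lay below the filter.

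Among 10 gamma genes 3 rose, 1 fell and 6 did not pass, against 19.2% of all genes that rose and 14.4% that fell. Gngt2, the gamma subunit of cone photoreceptors, read 294 and 304 on the depleted and 715, 712 and 655 on the enriched arrays of set A, a 2.02-fold rise (adjusted p = 1.22e-05, limma). Gng11 went from 444 and 447 to 859, 953 and 851, a 1.83-fold rise (adjusted p = 4.52e-05). In both genes the depleted arrays were close together and far below the enriched ones. At 2 other tested probe sets Gng12 did not pass (log2 0.12 and 0.13, adjusted p = 0.209 and 0.133, limma). At the representing one it rose 1.24-fold, from 1115 and 1160 to 1543, 1342 and 1425 (adjusted p = 0.0176). Its call was lost without depleted sample 1 (0.151) or 2 (0.0935) or enriched sample 3 (0.0502), under quantile normalization (0.0953), with scaling to the median array (0.133), with its probe sets averaged (0.0502) and with a replicate block (0.0545). Gng10 fell 1.28-fold, from 1081 and 1109 to 730, 895 and 884 (adjusted p = 0.0185), and did not pass without depleted sample 1 (0.0925) or 2 (0.123).

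Gng2, a common gamma subunit of lymphocytes, had a difference of 0.05 at its tested set C probe set and did not pass. Its other probe sets lay below the filter and were not tested. They read 138 and 130 on depleted against 86.4, 90.8 and 81.0 on enriched arrays of set A, and 132 and 121 against 40.8 and 51.4 on set B. The enriched arrays were thus lower at both dim probe sets and overlapped the depleted ones at the tested one. Gng3, Gng4, Gng7, Gng8 and Gng13 had log2 differences of -0.09 to 0.17 and did not pass.

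**Figure D2:**
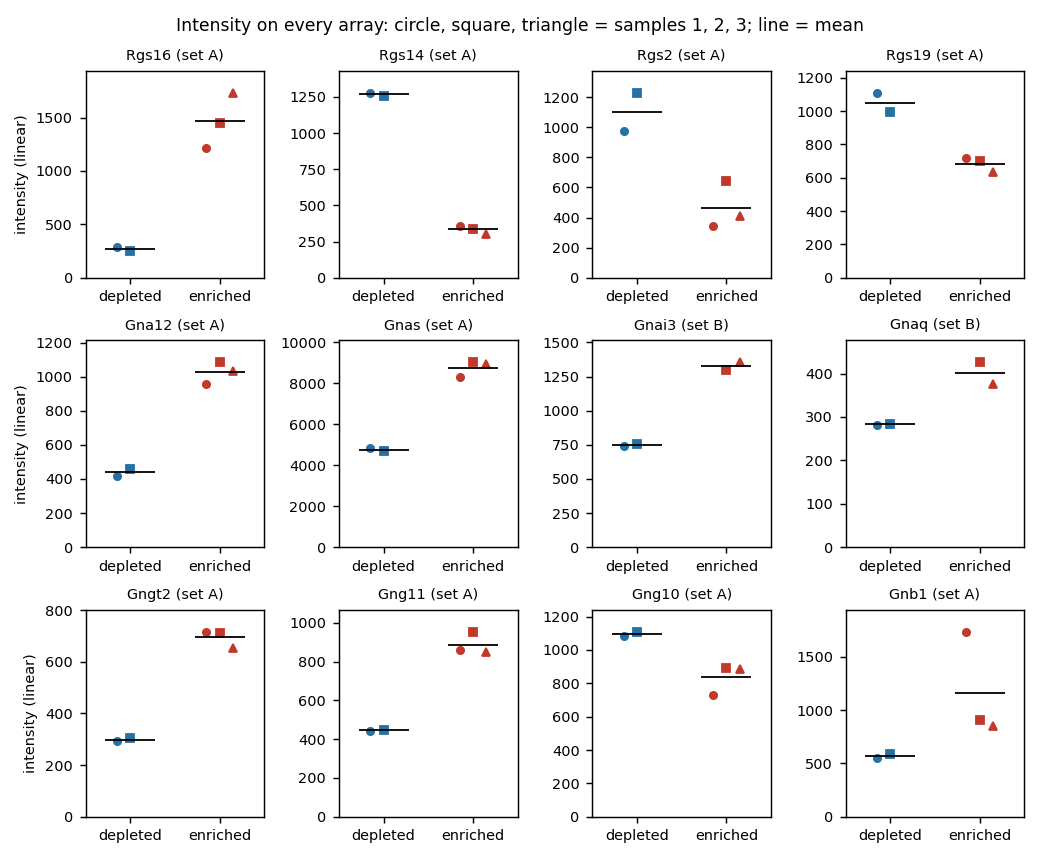
Linear intensity on every array for 12 genes that passed, at their representing probe set; circles, squares and triangles are samples 1, 2 and 3 of a group, and lines are group means. No panel has overlapping groups, Rgs2 shows the widest spread among the genes that fell, and enriched sample 1 stands apart for Gnb1 at 1734.

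Rgs proteins of the R4 subfamily are small and consist of little more than the RGS domain. It had 6 tested genes, of which 4 rose and 1 fell, against 19.2% and 14.4% of all genes. Rgs16, which acts on Gi and Gq subunits, read 284 and 251 on the depleted and 1215, 1445 and 1732 on the enriched arrays of set A. The means were 267 ± 23.4 (SD, n = 2) and 1464 ± 259 (SD, n = 3), a 4.33-fold rise with adjusted p = 6.2e-06 (limma), the largest among the 40 representing probe sets. Its other probe set, above the filter on enriched arrays alone, read 130 and 127 against 276, 299 and 337, a 1.80-fold rise that such a choice favours. Rgs2, a regulator of Gq, went the other way and fell 2.20-fold, from 975 and 1229 to 343, 641 and 409 (log2 -1.14 ± 0.20 SE, adjusted p = 0.00248). Its enriched arrays spread widely, and the highest of them, sample 2, still lay below both depleted arrays. Beside these genes, 12 of 14 tested dissociation and immediate early genes rose and 1 fell, and on set A the summed intensity of 13 of them was 42620 to 46170 on depleted and 71450 to 75520 on enriched arrays. The part of that difference in the Rgs2 and Rgs16 values was not tested.

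Rgs5, a marker of pericytes, showed the largest change of any tested probe set of the family. That probe set lay above the filter on enriched arrays alone, a choice that favours a rise. On set B it read 15.7 and 11.2 on the depleted and 563 and 530 on the enriched arrays, from 13.4 ± 3.14 (SD, n = 2) to 547 ± 23.6 (SD, n = 2). It rose 6.63-fold on the scale with the pseudocount of 81.23 (log2 2.73, adjusted p = 1.24e-09, limma). The representing Rgs5 probe set, on set A, went only from 362 and 390 to 482, 425 and 476. Its 1.18-fold rise (adjusted p = 0.0370) was lost without depleted sample 1 (0.253) or 2 (0.106) or enriched sample 3 (0.112), with both other scalings (0.209 and 0.252), with no filter (0.0520) and with a replicate block (0.125). Another Rgs5 probe set, also on set A, lay below the filter, at 76.9 and 72.0 against 114, 129 and 139. All 3 probe sets had the enriched arrays on top, with very different sizes of change.

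Rgs4, known from neurons and heart, rose at both tested probe sets. On set B it went from 14.8 and 19.9 to 170.0 and 176, a 2.58-fold rise (adjusted p = 3.54e-08, limma). On set C it went from 106 and 86.3 to 149, 170.0 and 166, a 1.44-fold rise (adjusted p = 0.000974). Its dim set A probe set, not tested, read 91.6 and 83.5 against 78.6, 79.5 and 81.0 and ran the other way. On set B the Rgs4 and Rgs5 probe sets passed the filter through enriched arrays alone, and without enriched sample 2 or 3 they could not be tested, since 1 array then lay above it. Beside both genes, all 12 tested pericyte and smooth muscle markers rose, with none listed at 0. The summed intensity of 10 of them on set A was 1704 to 1761 on depleted and 9750 to 11570 on enriched arrays, and that of the other 2 on set B was 619.1 to 644 and 1487 to 1523. Of 7 tested neuron and glia markers 3 rose and none fell, with sums over 4 of them on set A of 1860 to 1973 and 2680 to 2895, over 1 on set B of 138.2 to 140.8 and 195.4 to 207.5, and over 2 on set C of 261.8 to 265.9 and 268.2 to 277. The part of these cells in the Rgs4 and Rgs5 values was not tested.

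**Figure D3:**
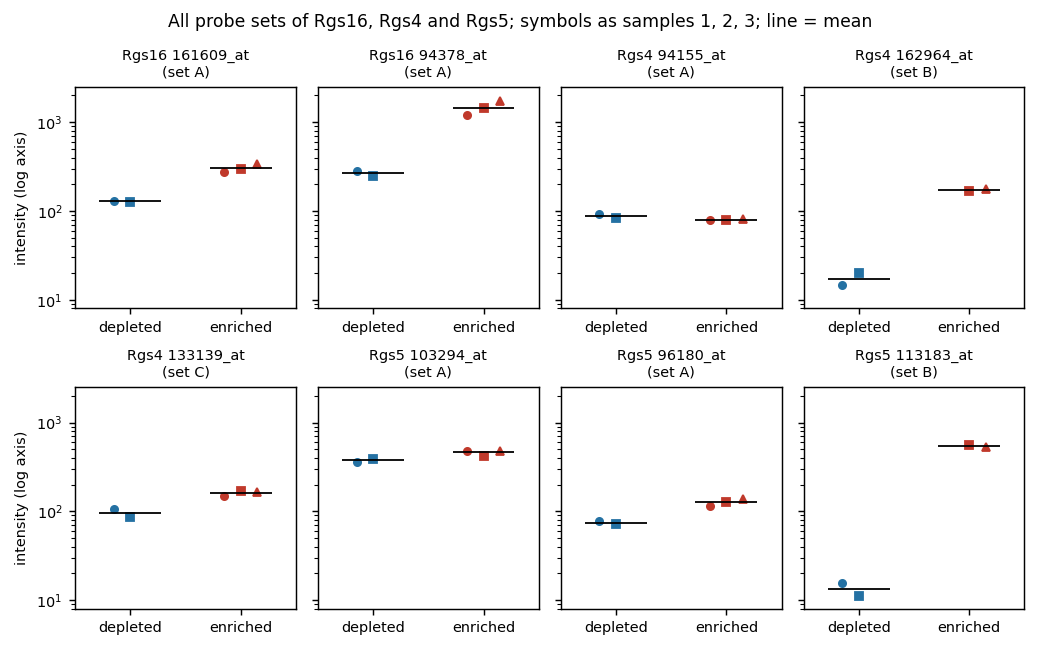
Intensity on a log axis for every probe set of Rgs16, Rgs4 and Rgs5, tested or not; circles, squares and triangles are samples 1, 2 and 3 and lines are group means. The set B probe sets of Rgs4 and Rgs5 climb from 11.2 to 19.9 on depleted arrays to 170.0 to 563 on enriched arrays, while the set A probe set of Rgs4 does not climb.

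Rgs3 rose 1.24-fold at its set A probe set, from 1779 and 1809 to 2305, 2118 and 2302 (adjusted p = 0.0138, limma), and 1.24-fold on set B, from 275 and 267 to 358 and 350 (adjusted p = 0.00213). The set A call was lost without depleted sample 1 (0.122) or 2 (0.0993) or enriched sample 3 (0.0516), under quantile normalization (0.0521), with scaling to the median array (0.141) and with a replicate block (0.0787), whereas the set B call held in all 7 alternatives run for it. Rgs8 had a bright set C probe set that read 2689 and 3504 against 2583, 2228 and 2342. Its difference of -0.36 narrowly missed the threshold (adjusted p = 0.0504) and passed with scaling to the median array (0.0383), with array weights (0.0168), with adjustment over all array sets (0.0316), and without depleted sample 1 (0.0067) or enriched sample 1 (0.0278). Another Rgs8 probe set had 0.05 and did not pass. Rgs13, a regulator of germinal centre B cells, lay below the filter at 56.6 and 44.6 against 48.5 and 65.7.

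Several of these genes are neighbours in the mouse genome. In the RefSeq gene table of assembly GRCm38.p6 no protein-coding gene lies between Rgs5 and Rgs4, between Rgs8 and Rgs16 or between Rgs2 and Rgs13, all on chromosome 1. Rgs5 and Rgs4 both rose, whereas Rgs16 rose beside Rgs8, which did not pass and had a value below 0. Among alpha subunits, Gnai3 rose beside Gnat2, and Gnaq beside Gna14, both neighbours being below the filter. Gna11 (0.18) and Gna15 (-0.16), also adjacent, had values of opposite sign, and neither passed at its representing probe set.

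RefSeq promoter sequences of GRCm38.p6, from 250 bases before to 50 bases after a gene's start, matched 37 of the 48 genes. The promoters of the R4 genes with the largest changes are shown to set the adjacent risers Rgs5 and Rgs4 and the opposed pair Rgs16 and Rgs2 side by side. Capitals mark the letters TATAAA, of the TATA box, and GGGCGG, of the GC box, on either strand. TATAAA is found in 13.6% and GGGCGG in 35.7% of the 32851 promoters in the table.
Rgs5, chr1:169655251-169655550, plus strand: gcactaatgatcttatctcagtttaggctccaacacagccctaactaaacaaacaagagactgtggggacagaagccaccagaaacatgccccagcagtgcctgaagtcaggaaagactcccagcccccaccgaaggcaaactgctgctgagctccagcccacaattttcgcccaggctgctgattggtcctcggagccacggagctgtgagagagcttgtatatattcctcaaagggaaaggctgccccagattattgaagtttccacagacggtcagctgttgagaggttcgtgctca
Rgs4, chr1:169747593-169747892, minus strand: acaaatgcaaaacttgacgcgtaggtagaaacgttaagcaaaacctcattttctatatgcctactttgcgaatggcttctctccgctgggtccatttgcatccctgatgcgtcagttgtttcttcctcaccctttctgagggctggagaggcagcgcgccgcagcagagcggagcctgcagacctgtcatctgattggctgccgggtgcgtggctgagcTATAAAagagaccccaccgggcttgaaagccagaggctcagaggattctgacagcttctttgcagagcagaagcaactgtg
Rgs16, chr1:153740103-153740402, plus strand: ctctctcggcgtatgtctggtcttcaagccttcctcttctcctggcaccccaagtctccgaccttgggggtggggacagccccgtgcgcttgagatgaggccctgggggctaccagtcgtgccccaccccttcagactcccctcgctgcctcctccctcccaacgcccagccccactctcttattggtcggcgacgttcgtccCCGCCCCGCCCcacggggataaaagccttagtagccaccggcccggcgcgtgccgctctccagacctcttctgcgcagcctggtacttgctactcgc
Rgs2, chr1:144004100-144004399, minus strand: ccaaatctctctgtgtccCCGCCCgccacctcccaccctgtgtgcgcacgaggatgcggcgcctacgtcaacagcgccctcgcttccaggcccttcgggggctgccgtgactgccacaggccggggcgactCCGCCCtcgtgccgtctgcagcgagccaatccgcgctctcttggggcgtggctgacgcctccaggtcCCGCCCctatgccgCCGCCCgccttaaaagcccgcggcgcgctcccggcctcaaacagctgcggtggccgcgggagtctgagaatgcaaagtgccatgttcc
Rgs4 holds TATAAA with its first base 31 bases before the start, and Rgs16 and Rgs2 hold 2 and 4 GGGCGG, while Rgs5 holds neither. The promoters of Rgs16 and Rgs2 have GC contents of 66% and 70%, and those of Rgs4 and Rgs5 of 53% and 52.3%. The searches for CCGGAAG, TGACGTCA and CACGTG found none in these promoters. Matches describe letters only.

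The R12 subfamily held the largest fall. Rgs14, which also carries domains that bind Gi subunits and Ras family proteins and is abundant in lymphoid tissue, read 1279 and 1257 on the depleted and 359, 337 and 305 on the enriched arrays of set A. The means were 1268 ± 15.5 (SD, n = 2) and 334 ± 27.0 (SD, n = 3), a 3.22-fold fall with adjusted p = 1.21e-06 (limma). Rgs10 and Rgs12 of the same subfamily did not pass at their representing probe sets. Rgs10 had a value of -0.03 there, from a fit without enriched sample 2, which lacks a value there. Another Rgs10 probe set rose 1.31-fold, from 575 and 542 to 817, 765 and 703 (adjusted p = 0.00564), and lost the call without depleted sample 2 (0.0689). The representing Rgs12 probe set read 655 and 658 on depleted and 639 and 654 on enriched arrays of set B. Of its 3 other tested probe sets 1 rose 1.20-fold, from 257 and 265 to 321 and 335 (adjusted p = 0.00616), losing the call without depleted sample 1 (0.0516).

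In the RZ subfamily Rgs19, a Gi regulator of leukocytes, fell 1.48-fold, from 1110 and 993 to 721, 698 and 633 (adjusted p = 0.00103, limma). A second probe set fell 1.27-fold (adjusted p = 0.0237), a call lost without depleted sample 1 (0.0709) or 2 (0.167) or enriched sample 3 (0.0775) and with a replicate block (0.0517). Rgs17 read 129 and 156 against 136, 140 and 120 at its representing set C probe set, a difference of -0.07 that did not pass. A set B probe set of Rgs17, higher in intensity, read 156 and 158 against 195 and 182 and passed at 0.18 (adjusted p = 0.0311) and did not without depleted sample 1 (0.140) or 2 (0.128) or enriched sample 2 (0.157) or with the other scalings (0.0659 and 0.0681). Of the R7 subfamily, best known from neurons and retina, Rgs11 (0.24, adjusted p = 0.0728) and Rgs9 (0.03) did not pass, and Rgs6 and Rgs7 lay below the filter. Rgs11 passed with array weights (0.00557) and without enriched sample 2 (0.0254). Rgs7bp, the membrane anchor of that subfamily, had 0.15 on set B and did not pass, and its dim set C probe set, not tested, had means of 22.9 and 88.6.

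Beside the falls of Rgs14, Rgs19, Rgs2 and Gng10, all on set A, the summed intensity of 8 B cell markers there was 23770 to 23860 on depleted and 7161 to 9254 on enriched arrays. That of 11 T cell markers was 9259 to 9441 and 4152 to 4594, over the arrays with a value for all of them. That of 5 NK cell markers was 3368 to 3748 and 961.2 to 1202, and that of 7 neutrophil markers 6498 to 7209 and 3082 to 3775. Beside the rises of Gngt2, Gng11, Gna12 and Gnas, also on set A, that of 10 endothelial markers was 3607 to 3668 on depleted and 19560 to 21490 on enriched arrays. That of 9 FDC markers was 5216 to 6052 and 21960 to 26330, and that of 9 reticular fibroblast markers 3034 to 3779 and 10240 to 12130. That of 10 pericyte and smooth muscle markers was 1704 to 1761 and 9750 to 11570. That of 10 macrophage markers was 9345 to 11070 and 21610 to 25380, and that of 4 megakaryocyte and platelet markers, of which 6 of 8 on all sets rose, was 1310 to 1372 and 2120 to 2300. No marker of these lists was listed at 0 on any array, and their part in the values of these genes was not tested.

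Of 20 genes with over 1 tested probe set, 14 had all tested probe sets on 1 side of 0. None of the 20 had probe sets passing in both directions, and 8 had some that passed and some that did not. Over all 12267 tested genes 92 passed in both directions, so none among 20 says little. For Gna12, Rgs16, Rgs4 and Rgs5 an agreeing probe set lay above the filter on enriched arrays alone, which favours a rise. With a gene called if any tested probe set passed, 18 genes rose and 4 fell, against 23.9% and 18.1% of all genes. The 5 genes gained were Gna11, Gnai2, Rgs10, Rgs12 and Rgs17. Several of the representing probe sets (those of Gnas, Gnai2, Rgs10, Rgs19 and Rgs8) carry an s, f or r in their name, which the array maker used for probe sets that can match more than 1 transcript or that were picked under relaxed rules. Cross-hybridisation at them was not tested.

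The partners of G proteins were described from lists of effectors and receptors. Of 43 tested effectors and regulators 12 rose, 11 fell and 20 did not pass, against 19.2% and 14.4% of all genes, with a median log2 difference of 0.04 that was -0.04 and -0.05 under the other scalings. Without depleted sample 1, 7 fell. Cav1, which encodes the caveolar scaffold that binds G protein signalling enzymes, rose 9.77-fold, with means of 137 ± 4.60 (SD, n = 2) and 2116 ± 166 (SD, n = 3; adjusted p = 9.36e-08, limma). Adcy7, the adenylyl cyclase of haematopoietic cells, fell 3.27-fold. The receptor kinase gene Grk6 fell 2.63-fold, the calcium channel gene Itpr2 2.54-fold and the protein kinase C gene Prkcb 2.51-fold, with adjusted p of 4.21e-06 to 3.77e-05.

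Receptor genes differed by list, and the lists were chosen with earlier results of these data known. Of 19 tested receptors of leukocytes 1 rose, 9 fell and 9 did not pass (median -0.25), against 19.2% and 14.4% of all genes that rose and fell. The chemokine receptor gene Cxcr4 fell 3.84-fold, with means of 1531 ± 491 (SD, n = 2) and 326 ± 56.2 (SD, n = 3), and Gpr18 fell 2.95-fold. Ccr7, the receptor gene that guides lymphocytes to T cell zones, fell 2.57-fold and Cxcr5, which guides B cells to follicles, fell 2.03-fold. Gpr65, a sensor of protons, fell 1.63-fold and S1pr4, a sphingosine phosphate receptor of lymphocytes, fell 1.54-fold. The receptor gene that rose was Ptafr, for platelet-activating factor, at 1.42-fold, named after its value was seen because it was the only one. Of 27 tested genes of the list of receptors of vessels and stroma 14 rose and 13 did not pass (median 0.26), beside the same shares of all genes. With limma none fell, 0 were lower at an unadjusted p under 0.05, and 1 fell under either other scaling. The adhesion receptor genes Adgrf5 and Adgrl4 rose by 3.91 and 2.60 on the log2 scale, the endothelin receptor gene Ednrb 7.59-fold, and the scavenging chemokine receptor gene Ackr3 6.58-fold. Ramp2, an accessory protein of the adrenomedullin receptor, rose 5.25-fold and the nucleotide receptor gene P2ry6 2.08-fold. The receptor lists were split by the cell type they are known from. The lymphocyte, endothelial and pericyte marker values given above thus move with them too. Macrophage markers, of which 12 of 12 rose, stand beside the rises of Ptafr and P2ry6 as well. The part of all these cells in the receptor values was not tested.

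**Figure D4:**
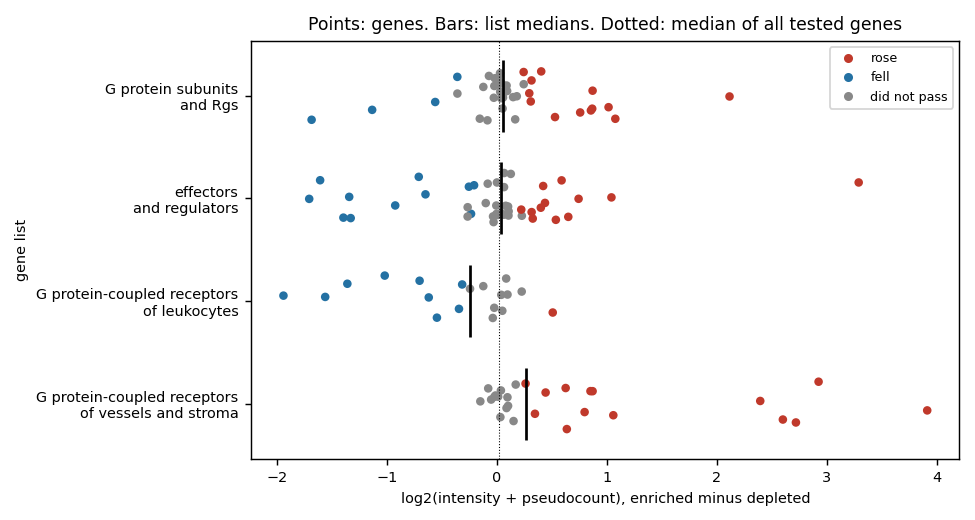
Log2 difference, enriched minus depleted, of every tested gene of the family and of 3 lists of partners; each point is a gene, black bars are list medians and the dotted line is the median of all tested genes (0.02). Leukocyte receptors lie mostly left of 0 (median -0.25) and vessel and stroma receptors right of it (median 0.26), while subunits, regulators and effectors lie on both sides.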

How the data were processed

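Arrays were hybridised with total RNA of FDC-enriched or FDC-depleted mouse spleen cells, grouped by the sample titles. Linear intensity was deposited by the authors as 1 table per array set, whose summarisation and scaling were not described in the sources used here. These held 12488, 12477 and 11934 probe sets, 893 of them lacking a value for enriched sample 2 of set A. Within a set, array trimmed means differed by at most 1.08-fold, so the deposited scale was kept. Symbols came from the platform annotation, updated through Entrez identifiers (found for 10817, 10550 and 7677 probe sets with 1 symbol). Probe sets with several symbols were left out, Gng5 among them.

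Each set was fitted alone in R 4.3.3 with limma 3.58.1 (lmFit, eBayes with trended variance, two-sided) on log2(intensity + pseudocount), the 20th percentile of the positive values (88.49, 81.23 and 53.13 for A, B and C). A probe set was tested where at least 2 arrays had it above their 40th percentile (7895, 7786 and 7358), with Benjamini-Hochberg adjustment within the set. The scripts were tested on simulated data. The smallest exact permutation p of a gene would be 0.1, or 0.333 on set B, so the number of arrays limits the precision. A gene was represented by its tested probe set with the highest level rank. Values on every array are given for genes that passed and, at 1 or more probe sets, for those whose probe sets disagree. Up to 6 genes of a partner list are given as folds or means, 1 of which is not reported here. The members and lists were chosen with earlier results of these data known. The 15 alternatives were other scalings, pseudocounts, filters, variance models, weights, adjustment, averaging, a replicate block and leaving out each sample. On sets A and C enriched sample 3 has no depleted sample of its number. The block gave the same log2 difference as leaving that sample out for Gng12 (0.318), Rgs3 (0.288) and Rgs5 (0.222), among others. A call lost in both is thus not lost on separate grounds.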

Additional observations from a re-analysis of the deposited data

How the results depend on the processing

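Of the 17 genes that passed, 11 kept the call and none changed sign under the alternatives run for them. The count of genes that rose went from 13 to 10 under quantile normalization, with scaling to the median array and with a replicate block, and the count that fell from 4 to 5, 6 and 4. Over all genes the rises went from 2357 to 2009, 1873 and 2077, and the falls from 1772 to 2304, 2439 and 1583. The shares of all genes given above thus hold for the main fit on the deposited scale. Leaving out each sample gave 8 to 14 rises and 3 to 5 falls, the 8 without either depleted sample. It gave 7 to 11 falling effectors, 1 or 2 rising leukocyte receptors, and 1027 to 1905 falls over all genes against 1772. Fits with 1 array in a group assume that it varies like the others. With no filter, array weights or adjustment over all sets, 2 leukocyte receptors rose, and under either other scaling 1 vessel or stroma receptor fell. Whether samples of the same number were paired is not stated. On sets A and C same-numbered samples had correlations of deviations of 0.033, 0.061, -0.31 and -0.15, over 2 pairs a set, and set B shared too few numbers for a block. With 2 depleted samples the deviations of 1 mirror those of the other, so these correlations cannot decide whether samples were paired. Counting any passing probe set, chosen after seeing the data, gave 18 rises and 4 falls.

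Values that did not pass could change sign, and the cause was not tested. Under quantile normalization the log2 differences of Gna13, Gnao1, Gnat1, Gng3 and Gng4 were -0.10, -0.071, -0.029, -0.079 and -0.057. With scaling to the median array they were -0.11, -0.080, -0.037, -0.085 and -0.069, and those of Gnai2 and Gnb2 -0.10 and -0.043. With probe sets averaged, Gnao1, Rgs10 and Rgs12 had -0.015, 0.083 and 0.11. Gng4 had -0.076 with array weights and Gng3 -0.011 with the replicate block. Leaving out each sample gave -0.16 to 0.19 for Gna13, -0.062 to 0.013 for Gnai1, -0.012 to 0.070 for Gnai2, -0.012 to 0.087 for Gnao1, -0.023 to 0.12 for Gng2, -0.036 to 0.080 for Gng3, -0.037 to 0.14 for Gng4, -0.21 to 0.032 for Gng7, -0.087 to 0.029 for Rgs10 and -0.17 to 0.026 for Rgs17. Each of 6 genes not called (Gna11, Gna15, Gnat1, Gng8, Rgs8 and Rgs11) passed under at least 1 alternative.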
